A study of Mus musculus with 69 samples.

Results

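The receptors for glutamate, GABA, glycine and acetylcholine are encoded in the mouse by a set of named gene families, and 73 genes of these families were described here across the pituitary, hypothalamus and ovary of female mice. A rule on gene symbols picked the members, but the set itself was chosen with earlier results of these data known. From 55401 gene IDs the rule took 4 AMPA (Gria), 7 NMDA (Grin), 5 kainate (Grik), 2 delta (Grid) and 8 metabotropic (Grm) glutamate receptor genes. It also took 19 GABA-A (Gabr) and 2 GABA-B (Gabbr) genes, 5 glycine receptor genes (Glra, Glrb), 16 nicotinic (Chrn) and 5 muscarinic (Chrm) acetylcholine receptor genes. The study asked what follows when Zeb1, a gene for a zinc finger transcription factor, can no longer be repressed by microRNAs of the miR-200 family. Mice carried point mutations at the predicted miR-200 sites in the Zeb1 3′ UTR, in the germline and so in every cell type, either on one allele (Zeb1_200H, heterozygous, here 200H) or on both (Zeb1_200M, homozygous, here 200M), and were compared with wild-type mice (Zeb1_WT, here WT). All mice were C57BL/6J females killed in proestrus, and the knock-in lines came from 2 independent embryonic stem cell clones.

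RNA-seq was available from 69 libraries in 18 groups. A young cohort of virgin mice, aged 8 to 12 weeks, gave ribosomal RNA-depleted, stranded libraries. An older cohort, aged 28 to 36 weeks and killed after a breeding trial, gave poly(A)-selected, unstranded libraries. Age, breeding history, library chemistry and read counting all differed between the cohorts and cannot be told apart, so each comparison was made within a cohort. Groups held 4 libraries each, from different mice, except for 3 in young WT pituitary, older 200M pituitary and older 200M hypothalamus. Depth, as counts assigned to genes, ran from 3321845 to 5143128 in young hypothalamus and from 4527753 to 14655095 in the other tissues and cohorts. Zeb1 itself checked the labels in the pituitary: its mean level was 95.6 CPM (counts per 1000000 counts of a library) in WT, 130.5 in 200H and 137.9 in 200M of the young cohort. The older means were 58.8, 73.8 and 85.2 CPM in the same order. The increases were called in each pituitary comparison with WT (log2 fold change in 200M 0.52 and 0.55, edgeR quasi-likelihood test, adjusted p = 2.39e-05 and 0.000833). Zeb1 was not called in hypothalamus or ovary. Each tissue held its defining markers: in WT libraries of both cohorts the lactotrope markers Prl and Drd2 summed to at least 132900 CPM in pituitary, the 7 neuron markers to at least 4115 CPM in hypothalamus, and the granulosa and luteal markers to at least 1518 CPM in ovary. Each tissue is a mixture of cell types, and in such bulk RNA fewer cells of a type and less RNA per cell cannot be told apart.

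Ionotropic receptors are ion channels opened by the transmitter itself. AMPA, kainate and NMDA receptors are tetramers that pass cations when glutamate binds, and NMDA receptors pair the obligatory Grin1 subunit with Grin2 or Grin3 subunits. GABA-A and glycine receptors are pentameric chloride channels and nicotinic receptors are pentameric cation channels, whereas metabotropic glutamate, GABA-B and muscarinic receptors act through G proteins. In the anterior pituitary, endocrine cells are electrically excitable and respond to GABA, glutamate and acetylcholine; in the hypothalamus these receptors carry fast synaptic transmission. ZEB1 is best known as a repressor that binds E-box sequences, and Zeb1 and the miR-200 family repress each other.

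The mature miR-200 family sequences (RefSeq, GRCm38.p6) are shown because the knock-in removes their sites from Zeb1 and because the same seed matches occur in a few receptor mRNAs. They are written 5′ to 3′ with the seed, bases 2 to 8, in capitals.
miR-200b-3p (chr4:156055685-156055706, minus strand): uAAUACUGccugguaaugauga
miR-200c-3p (chr6:124718324-124718346, minus strand): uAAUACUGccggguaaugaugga
miR-429-3p (chr4:156053916-156053937, minus strand): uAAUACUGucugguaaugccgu
miR-200a-3p (chr4:156054911-156054932, minus strand): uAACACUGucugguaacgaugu
miR-141-3p (chr6:124717917-124717938, minus strand): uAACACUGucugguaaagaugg
The first 3 share one seed and the other 2 share another that differs from it at 1 base. The 8-base match CAGTATTA, which pairs with the first seed, occurred on the sense strand in the longest annotated 3′ UTR of 3 of 70 receptor genes (4.29%), against 3.18% of 20848 genes with such a UTR. The match CAGTGTTA to the second seed occurred in 1 of 70 (1.43%), against 3.88% of all genes. The 4 stretches are given below 5′ to 3′ as in the mRNA, with the match in capitals (annotation GENCODE M21, GRCm38).
Grin2b (chr6:135729347-135729376, minus strand, 3′ UTR): tgggtctctatCAGTATTAagcaaaacttg
Gabrb1 (chr5:72142346-72142375, plus strand, 3′ UTR): atggacaggcgCAGTATTAtttattacctg
Grik2 (chr10:49100247-49100276, minus strand, 3′ UTR): aaaacagggctCAGTATTActggttatatg
Gabrg3 (chr7:56721654-56721683, minus strand, 3′ UTR): taggtggaggaCAGTGTTAataaattaact
Grin2b, Gabrb1 and Gabrg3 are among the genes that rose in the pituitary below, and Grik2 is not. The knock-in left these UTRs as they are, and a match describes letters, not a working site.

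The letters CAGGTG or CAGGTA, the E-box forms that ZEB1 is known to bind, were searched on both strands from 250 bases before to 50 after each gene's RefSeq start. They occurred for 22 of the 52 receptor genes with a sequence (42.3%), against 32.5% of 27025 genes. Of the 20 receptor genes described first below, Gabrg3 and Grin1 held such a match, shown in capitals within 30 bases of the gene's own strand.
Gabrg3 (chr7:57387434-57387463, minus strand, promoter): ccagggggagttCAGGTAagcaagcaccac
Grin1 (chr2:25319357-25319386, minus strand, promoter): cacttaagagtgCAGGTGcacgtggtgata
Receptor genes without a sequence were not searched, and these may include some of the 20. A searched gene without a match lacks only these letters in this window.

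In WT tissue the receptor genes were highest in hypothalamus. Of the 73, the number with a mean WT level of at least 1 CPM was 57 in young and 60 in older hypothalamus, 49 and 45 in pituitary, and 51 and 33 in ovary. The median WT level over the 73 genes was 47.6 and 36.5 CPM in hypothalamus against 4.78 and 2.41 in pituitary and 2.24 and 0.545 in ovary. To compare genes with each other, levels were divided by exon length. In young WT pituitary Gabbr1, the gene of the ligand-binding GABA-B subunit, stood at 23.8 CPM per kb, followed by Gria1 (14.4 ± 1.64, SD, n = 3), the glycine receptor gene Glra2 (13.0), the kainate subunit Grik5 (11.2) and Grin1 (10.5). In older WT pituitary the same genes led their families, with Grik5 highest (20.8 CPM per kb), then Gria1 (18.1). In hypothalamus the leading gene per kilobase was Gabbr1 in both cohorts (128.0 and 111.0 CPM per kb). In ovary it was also Gabbr1 in young WT (37.3 CPM per kb), whereas Gabbr1 and Grik5 were level in older WT ovary (both 15.0). Delta, metabotropic and muscarinic genes stayed below 4 CPM per kb in WT pituitary.

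In the pituitary many receptor genes rose with the knock-in, led by the NMDA receptor gene Grin2b, the nicotinic gene Chrna7, the GABA-A genes Gabrg3 and Gabra3 and the glycine receptor gene Glra1. In young 200M pituitaries 50 of the 73 genes had enough counts to be tested, and 27 rose and 2 fell against WT (adjusted p below 0.05). Among all genes tested 21.5% were called, 11.5% as raised and 10.0% as lowered. In older 200M pituitaries 48 were tested, and 27 rose and 1 fell, against 21.4% of all genes called, 11.7% raised and 9.77% lowered. The median log2 fold change over the tested receptor genes was 0.50 in young and 0.62 in older mice, where the medians over all genes were 0.00 and -0.01. Every called-raised receptor gene had all its 200M libraries above all WT libraries, in both cohorts. The calls rest on these same libraries, so this separation largely restates them. Over all genes tested, called or not, 15.4% and 15.6% showed the pattern upwards, which is not a share over called-raised genes. A gene can pass the count filter through its higher group alone, so these counts and medians describe the genes tested. The genes tested in neither cohort numbered 21 and were mostly nicotinic (Chrna2, Chrna3, Chrna5, Chrna10, Chrnd, Chrne, Chrng), metabotropic glutamate (Grm3, Grm4, Grm6 among them) and GABA-A genes (Gabra6, Gabrp, Gabrr1, Gabrr2, Gabrr3). Of the 46 tested in both cohorts, 21 rose in both and 38 had the same sign. Of all 14080 genes tested in both cohorts, 8.2% rose in both and 77.0% had the same sign. Across these 46 genes, which are not independent replicates, the log2 fold changes of the cohorts had a Pearson r of 0.90 and a Spearman rho of 0.83. The cohorts share no libraries.

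**Figure D1:**
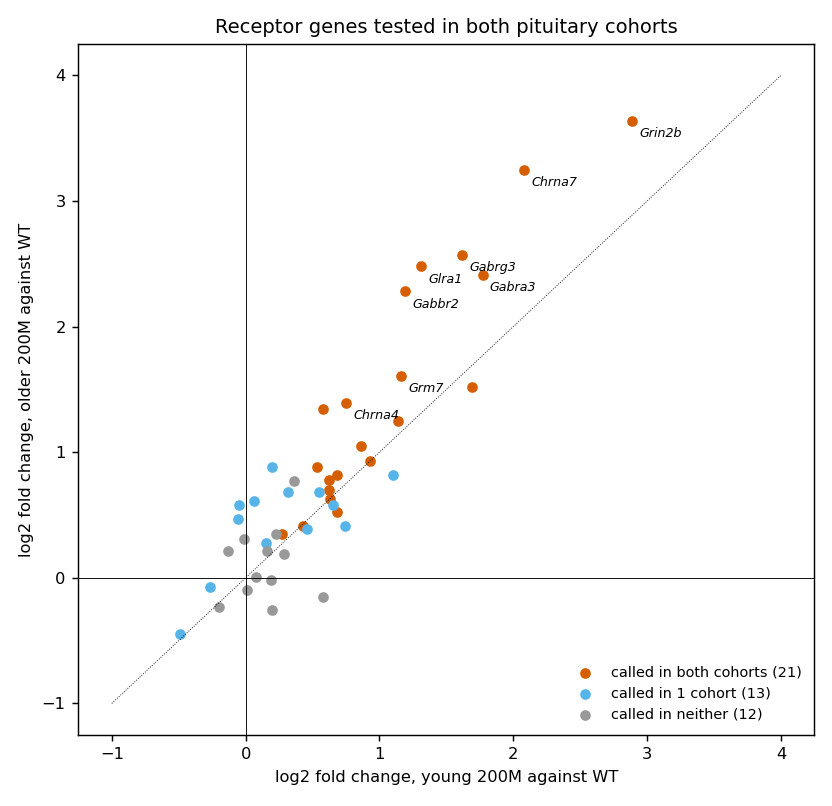
Log2 fold change of 200M against WT pituitaries in the young cohort (x axis) and the older cohort (y axis) for the 46 receptor genes tested in both, coloured by whether a gene was called in both cohorts (21), in 1 cohort (13) or in neither (12). Grin2b and Chrna7 lie farthest out in both cohorts, and most points lie above 0 on both axes.

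Grin2b had the largest increase of all receptor genes in both cohorts. It encodes GluN2B, the NMDA receptor subunit that dominates in the immature forebrain (chr6:135713233-136173511, minus strand, ENSMUSG00000030209). In young pituitaries its level was 3.27, 7.04 and 5.08 CPM in WT, 22.4, 21.6, 16.2 and 18.8 in 200H, and 47.7, 28.8, 41.3 and 34.4 in 200M. The 3 genotypes did not overlap, with 200H between WT and 200M. The increase was 7.43-fold in 200M (log2 fold change 2.89, SE 0.22, adjusted p = 3.79e-07) and 3.84-fold in 200H (1.94, adjusted p = 8.11e-05). In older pituitaries the levels were 0.276, 0.613, 0.600 and 0.875 CPM in WT, 4.19, 4.37, 4.56 and 7.53 in 200H, and 7.53, 8.78 and 6.55 in 200M. Here too every knock-in library was above every WT library, but 200H and 200M overlapped. The WT level in the older cohort rests on 20 counts over 4 libraries, and the increases were 12.5-fold in 200M (log2 3.64, SE 0.29, adjusted p = 5.41e-06) and 8.44-fold in 200H (3.08, SE 0.34, adjusted p = 8.45e-05).

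**Figure D2:**
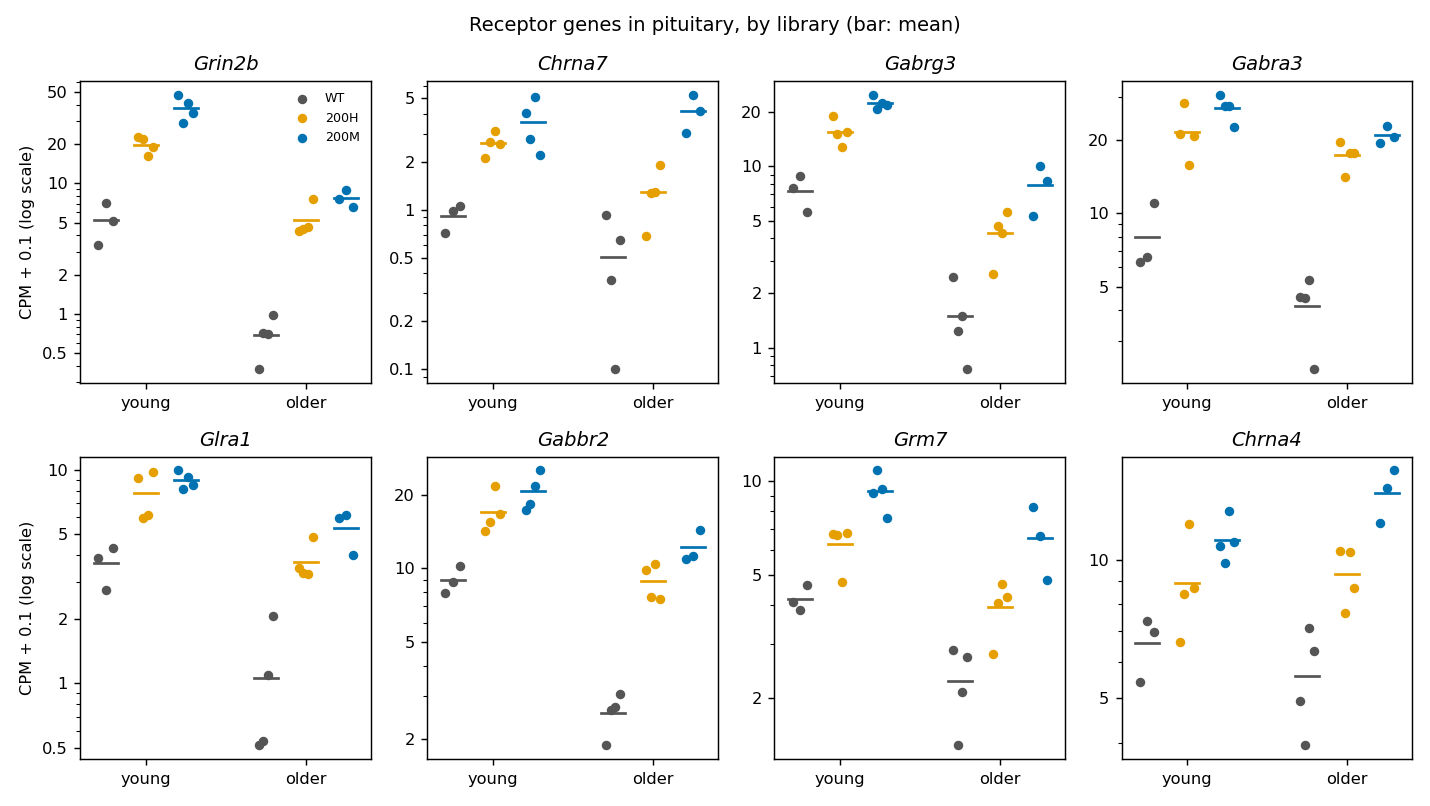
Levels of 8 receptor genes in each pituitary library (y axis, CPM plus 0.1 on a log scale) by genotype and cohort, 1 point per library and a line at the group mean. Within a cohort all WT points lie below all 200M points for each gene, and Grin2b separates WT, 200H and 200M in the young cohort.

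The other NMDA receptor genes moved less. Grin1, the obligatory subunit, rose from 111.3, 98.6 and 94.2 CPM in young WT to 168.9, 150.3, 158.9 and 151.2 in 200M, without overlap, and the log2 fold change was 0.63 in each cohort (adjusted p = 1.55e-05 and 0.00109). Its exons overlap those of Grin1os on the other strand over 1307 bases, which unstranded reads of the older cohort cannot separate. Grin2a rose in the older cohort (log2 0.88, SE 0.20, adjusted p = 0.00842), where WT libraries ran from 5.80 to 8.21 CPM and 200M libraries from 10.6 to 16.4. Its young levels overlapped, from 23.5 to 30.9 CPM in WT and from 29.3 to 36.7 in 200M. Grin3a was likewise called in the older cohort alone (0.58, adjusted p = 0.0179).

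Of the 4 AMPA receptor genes 3 rose in young and all 4 in older 200M, by smaller factors than Grin2b. Gria1 and Gria2, 2 pore-forming subunits of which GluA2 sets the calcium permeability of the channel, rose in both cohorts and both genotypes. Gria2 was at 171.3, 195.3 and 176.9 CPM in young WT, 247.8 to 286.6 in 200H and 271.0 to 289.8 in 200M, and no 200H or 200M library reached down to WT. Its log2 fold change in 200M was 0.62 (adjusted p = 6.17e-06) in young and 0.78 (adjusted p = 9.49e-05) in older mice. Gria1 changed by 0.68 and 0.52. Gria3 rose by 0.62 and 0.70 in 200M, although the older call was lost without 200M replicate 2 (log2 0.43) or WT replicate 2. Gria4 was called in the older cohort alone (0.68, adjusted p = 0.00205, against 0.32 and adjusted p = 0.103 in the young). Summed over the 4 genes, AMPA receptor RNA was 316.5 CPM in young WT, 458.6 in 200H and 483.5 in 200M, and 239.9, 376.5 and 374.0 in the older cohort.

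The summed level of the 5 kainate receptor genes was 292.0, 317.1 and 308.6 CPM in young WT, 200H and 200M, and 270.0, 276.3 and 304.1 in the older cohort. In young 200M pituitaries Grik3 (log2 0.46, adjusted p = 0.000332) and Grik4 (0.55, adjusted p = 0.0315) rose in edgeR and Grik2 fell (log2 -0.27, SE 0.09, adjusted p = 0.0444). Grik2 was at 121.1, 161.2 and 126.0 CPM in WT and at 106.9, 116.0, 119.1 and 110.2 in 200M, without overlap, and the call was lost when any 1 of 5 of the 7 libraries was left out. The Grik4 call was lost without any 1 of 4 libraries, in DESeq2 (adjusted p = 0.064) and with replicate number as a block (adjusted p = 0.442). Among older mice edgeR called none of the 5 kainate genes, 2 of which had an unadjusted p below 0.05. Grik3 there was at the threshold (log2 0.39, adjusted p = 0.0503), and DESeq2 called it (adjusted p = 0.0286), as did edgeR with the block (adjusted p = 0.00671), with no count filter (adjusted p = 0.00394) or without WT replicate 3 or 4. Older Grik4 (log2 0.68, adjusted p = 0.0921) was called with no filter (adjusted p = 0.0167). Grid1, a delta receptor gene whose product acts as a synaptic adhesion receptor, rose in 200M of both cohorts (by 0.68 and 0.82). Without 200M replicate 2 the older Grid1 call was lost (adjusted p = 0.0764).

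Of the metabotropic glutamate receptor genes, 4 were tested in young and 2 in older mice. Grm7, a presynaptic inhibitory receptor gene (chr6:110645581-111567230, plus strand), was at 3.99, 3.74 and 4.55 CPM in young WT, 6.69, 6.61, 4.66 and 6.73 in 200H and 9.08, 10.7, 9.37 and 7.53 in 200M. It rose 2.24-fold in young 200M (log2 1.16, SE 0.18, adjusted p = 0.000264) and by 1.61 on the log2 scale in older 200M (adjusted p = 0.00251), whereas 200H was not called (0.58 and 0.82, adjusted p = 0.0918 and 0.0773). Grm5, a Gq-coupled receptor gene and the metabotropic gene of highest WT level, went the other way in the young cohort. Its levels were 26.5, 43.8 and 30.6 CPM in WT, 19.6, 17.2, 10.1 and 21.4 in 200H and 24.3, 25.5, 25.6 and 19.99 in 200M, so that all knock-in libraries lay below WT. It fell by 0.98 on the log2 scale in 200H (SE 0.22, adjusted p = 0.011) and by 0.49 in 200M (SE 0.15, adjusted p = 0.025), and 3 single libraries could undo the 200M call. The older 200M value was -0.45 on the log2 scale (adjusted p = 0.0833). Grm2 rose in young 200M (2.18, SE 0.68, adjusted p = 0.0322) from only 8 counts over the WT libraries to 60 over the 200M libraries, and 2 single libraries could undo the call.

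GABA-A receptor genes formed the largest group of increases. In each cohort 13 of the 19 were tested in 200M and 7 rose, with a median log2 fold change of 0.65 in young and 0.77 in older mice, and none fell. Among the genes raised in both cohorts were the α subunit gene Gabra3, the β subunit gene Gabrb1 and the γ subunit gene Gabrg3. Gabra3 (chrX:72432681-72656848, minus strand) was at 6.24, 6.49 and 10.9 CPM in young WT, 21.0, 28.3, 15.7 and 20.6 in 200H, and 30.5, 27.3, 27.4 and 22.5 in 200M. In older mice it was at 4.42, 4.38, 5.20 and 2.19 in WT, 19.5, 14.0, 17.6 and 17.6 in 200H, and 19.3, 22.6 and 20.5 in 200M. No knock-in library overlapped WT, and the increase in 200M was 3.41-fold (log2 1.77, SE 0.17, adjusted p = 3.95e-06) and 5.32-fold (2.41, SE 0.22, adjusted p = 1.47e-05).

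Gabrg3 rose 3.07-fold in young 200M (7.46, 8.80 and 5.50 CPM in WT and 24.8, 20.6, 22.3 and 21.7 in 200M, adjusted p = 2.5e-06) and 5.95-fold in older 200M (2.35, 1.14, 1.40 and 0.657 CPM in WT and 5.23, 9.94 and 8.18 in 200M, adjusted p = 0.000319). Gabrb1 rose by 0.93 in each cohort (adjusted p = 1.68e-06 and 9.68e-05). Called in 1 cohort alone were Gabre (0.74) and Gabrq (0.65) in the young, and Gabra2 (0.61, SE 0.16) in the older cohort. The Gabrq and Gabra2 calls could be undone by leaving out 5 and 2 single libraries, respectively, and DESeq2 did not call Gabrq (adjusted p = 0.0707).

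The GABA-B receptor works as a pair of Gabbr1, which binds GABA, and Gabbr2, which couples to the G protein. Gabbr2 (chr4:46662305-46991873, minus strand) was the scarcer and rose further. It was at 7.87, 8.69 and 10.2 CPM in young WT, 14.1, 15.4, 21.7 and 16.6 in 200H, and 17.3, 18.3, 21.6 and 25.1 in 200M, and at 1.79, 2.54, 2.60 and 2.95 in older WT, 9.77, 7.57, 10.3 and 7.42 in 200H, and 10.9, 11.1 and 14.3 in 200M. The increase in 200M was 2.29-fold (log2 1.19, SE 0.16, adjusted p = 8.61e-05) and 4.87-fold (2.28, SE 0.21, adjusted p = 1.6e-05). Gabbr1 rose by 0.43 and 0.41 in 200M (adjusted p = 0.000127 and 0.00241) and was not called in 200H (0.28 and 0.20).

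Of the 5 glycine receptor genes 3 were tested, of which 2 rose in young and all 3 in older 200M. Glra1, the α subunit gene of adult spinal glycine receptors (chr11:55514238-55608198, minus strand), was at 3.78, 2.64 and 4.23 CPM in young WT, 9.04, 5.84, 6.07 and 9.73 in 200H, and 9.86, 8.07, 9.15 and 8.39 in 200M. It rose 2.48-fold in young 200M (log2 1.31, SE 0.19, adjusted p = 0.000182) and 5.58-fold in older 200M (2.48, SE 0.42, adjusted p = 0.00154), where WT libraries ran from 0.414 to 1.97 CPM and 200M libraries from 3.89 to 6.07. Glrb, the β subunit that anchors the receptor to gephyrin, rose by 0.53 and 0.88 in 200M (adjusted p = 0.00105 and 0.000295). Glra2, the most abundant glycine receptor gene of the WT pituitary, was called in the older cohort alone (0.47, adjusted p = 0.0276, against -0.06 and adjusted p = 0.783 in the young), and 4 single libraries could undo that call.

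**Figure D3:**
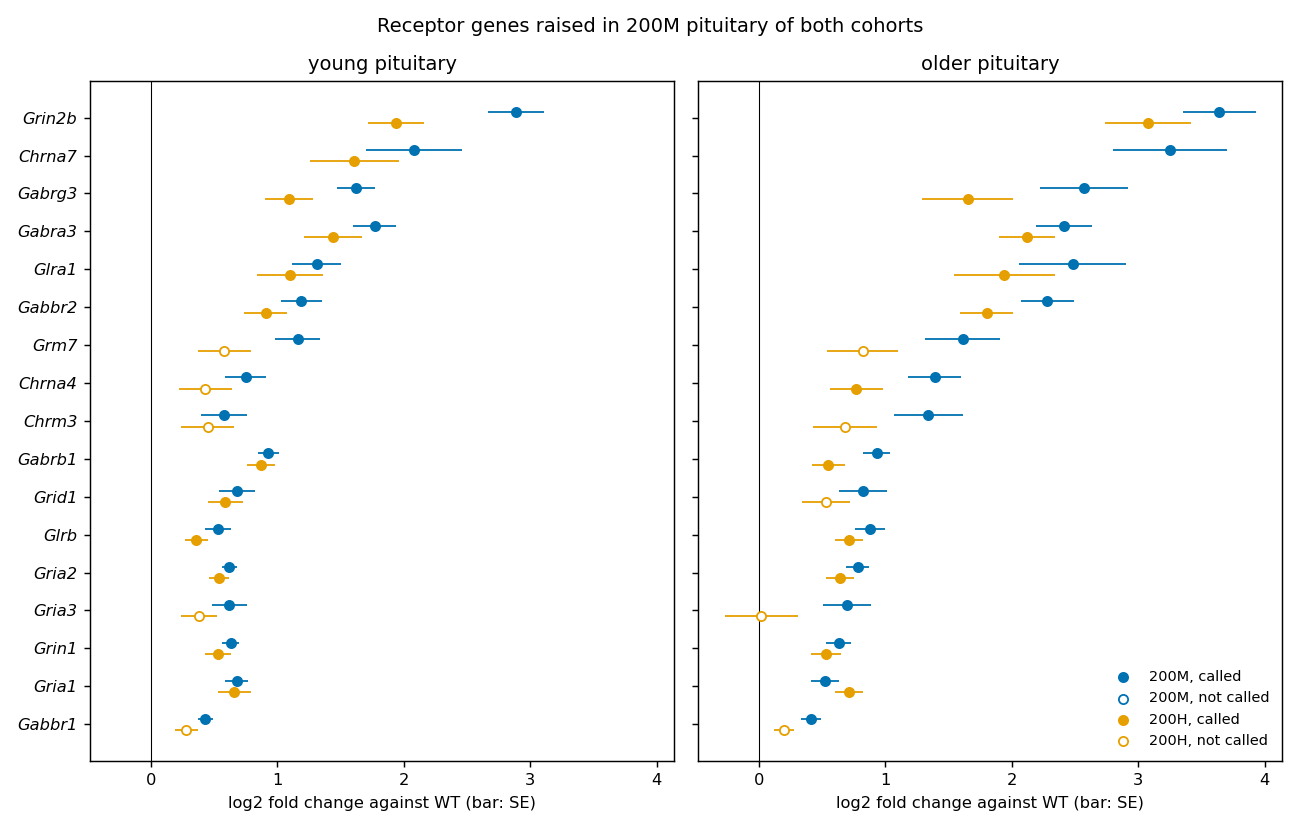
Log2 fold changes against WT (x axis, points, with bars of 1 standard error) for 17 receptor genes raised in 200M pituitaries of both cohorts, with 200M and 200H drawn separately. Filled points were called, and every 200M point is filled in both panels, whereas several 200H points are open.

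Among the nicotinic genes Chrna7, which forms homomeric channels of high calcium permeability (chr7:63098692-63212569, minus strand), had the largest increase after Grin2b among the genes raised in both cohorts. It was at 0.613, 0.880 and 0.952 CPM in young WT, 2.00, 2.58, 3.04 and 2.49 in 200H and 3.96, 2.66, 5.02 and 2.10 in 200M, and rose 4.23-fold in 200M (log2 2.08, SE 0.38, adjusted p = 0.00108). In older pituitaries it was at 0.828, 0.263, 0.0 and 0.547 CPM in WT and 2.93, 5.16 and 4.09 in 200M, and rose 9.48-fold (3.25, SE 0.45, adjusted p = 0.000383) from 14 counts over the WT libraries. The knock-in libraries lay above WT throughout the young cohort, and in the older cohort all 200M libraries did. Chrna4 (0.75 and 1.39) and Chrnb2 (0.27 and 0.35), which together make the main heteromeric receptor of the brain, rose in 200M of both cohorts. Chrnb2 shares 1365 exon bases with Adar on the other strand, and its calls were lost without any 1 of 4 libraries in young and 3 in older mice. The young Chrnb2 call (adjusted p = 0.0436) was also lost in DESeq2 (adjusted p = 0.0581), with its size factors, with the length trend removed and with the block. Chrnb4 rose in the young cohort alone (1.10, SE 0.34, adjusted p = 0.0327), a call that 5 single libraries could undo and that DESeq2 did not make (adjusted p = 0.058). Chrna9, known from hair cells of the inner ear, fell in the older cohort by 2.30 on the log2 scale (SE 0.58, adjusted p = 0.0149), from 1.79, 1.14, 3.002 and 3.72 CPM in WT to 0.209, 0.516 and 0.614 in 200M, a call lost without 200M replicate 1 or 2. The muscarinic gene Chrm3, coding for a Gq-coupled receptor, rose by 0.58 and 1.34 in 200M (adjusted p = 0.0301 and 0.00442), and 4 of the 7 young libraries could each undo the young call (adjusted p up to 0.117), which was also lost in DESeq2 (adjusted p = 0.0805). With the block the young Chrm3, Chrnb2, Chrnb4, Gabrq and Gria3 calls were lost (adjusted p = 0.21, 0.147, 0.46, 0.0699 and 0.0927).

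Grin2b, Chrna7, Gabrg3, Gabra3, Glra1, Gabbr2, Grm7 and Chrna4 kept their calls in both cohorts with any 1 library left out. Of the 21 genes raised in both cohorts, 16 had the larger log2 fold change in the older cohort.

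Heterozygous pituitaries were compared with the same WT libraries, so the values of 200H and 200M are set side by side and are not independent. In young 200H pituitaries 49 receptor genes were tested, 17 rose and 1, Grm5, fell, against 12.3% of all genes called (6.56% raised, 5.72% lowered). In older 200H pituitaries 45 were tested, 18 rose and none fell, against 12.2% of all genes called (7.09% raised, 5.14% lowered). The medians over the tested receptor genes were 0.38 and 0.47. Largest among the 200H increases, after Grin2b, were Chrna7 in the young (log2 1.61, adjusted p = 0.0084) and Gabra3 in the older cohort (2.12, adjusted p = 4.94e-05). Gabbr2 (0.91 and 1.80), Glra1 (1.10 and 1.94), Gabrg3 (1.09 and 1.65), Gria2 (0.54 and 0.64) and Grin1 (0.53 and 0.53) also rose in both cohorts of 200H. Gria3 in older 200H was at 2.79 CPM in replicate 1 and at 6.93 to 9.17 in the other 3, and its log2 fold change was 0.02.

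Comparing 200M with 200H tested for an added effect of the second altered allele. In young pituitaries 51 receptor genes were tested and 1 was called, Grin2b, which was higher in 200M (log2 0.94, SE 0.14, adjusted p = 0.0399), where 0.0383% of all genes were called, 0.0164% as raised. That call was lost without any 1 of 6 of the 8 libraries. In older pituitaries edgeR called none of 46 receptor genes, where 0.121% of all genes were called. DESeq2 called 1, Chrna7, where it called 0.845% of all genes, and 18 had an unadjusted p below 0.05, against 10.6% of all genes. Chrna7 was at 0.582, 1.17, 1.19 and 1.80 CPM in older 200H and at 2.93, 5.16 and 4.09 in 200M, without overlap (log2 1.78, SE 0.34, adjusted p = 0.0715 in edgeR and 0.0234 in DESeq2). The median receptor gene was higher in 200M than in 200H by 0.13 (41 of 51 above 0) and 0.19 (37 of 46 above 0), where 49.3% and 49.0% of all genes lay above 0. The young comparison had 10 receptor genes with an unadjusted p below 0.05, against 5.92% of all genes.

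The unequal increases changed the make-up of receptor classes, expressed as each gene's share of its class in CPM per kb. Grin2b made up 9.55% ± 3.55 (SD, n = 3) of the Grin2 RNA in young WT pituitaries, with a range of 5.71 to 12.7%. The share was 25.3% in 200H (20.7 to 29.1%) and 40.2% in 200M (34.3 to 48.1%), with no overlap between the ranges. The young Grin2a share was 71.5% in WT, 56.4% in 200H and 47.9% in 200M. In older pituitaries the Grin2b share was 2.65% in WT (1.25 to 3.74%), 13.0% in 200H (9.57 to 17.8%) and 18.8% in 200M (17.2 to 20.9%), and 200H overlapped 200M. There the Grin2a share overlapped between genotypes (43.5%, 45.6% and 42.4%), and the lower share in 200M was that of Grin2d (44.3% in WT, 38.4 to 56.9%, and 23.8 to 28.1% in 200M). In WT hypothalamus the Grin2b share was 71.7% in young and 25.6% in older mice.

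Among the GABA-A α subunit genes, the Gabra3 share was 13.3% in young WT, 26.6% in 200H and 28.4% in 200M, and 15.1%, 35.4% and 35.8% in the older cohort. Gabra2 went from 58.1% to 42.4% and 39.1% in the young, and from 33.4% to 19.9% and 22.9% in the older cohort. Among the β subunit genes Gabrb1 went from 17.0% in young WT to 26.7% in young 200H (22.5 to 27.6% in 200M). Its older share was 18.8% in WT (17.3 to 21.7%), 21.3% in 200H (up to 23.8%) and 26.6% in 200M (25.2 to 29.4%), so that 200H overlapped WT. Gabbr2 was 5.29% of GABA-B RNA in young WT, 8.11% in 200H and 8.72% in 200M, and 2.73%, 8.06% and 9.38% in the older cohort. RNA shares do not give the subunit make-up of assembled receptors.

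**Figure D4:**
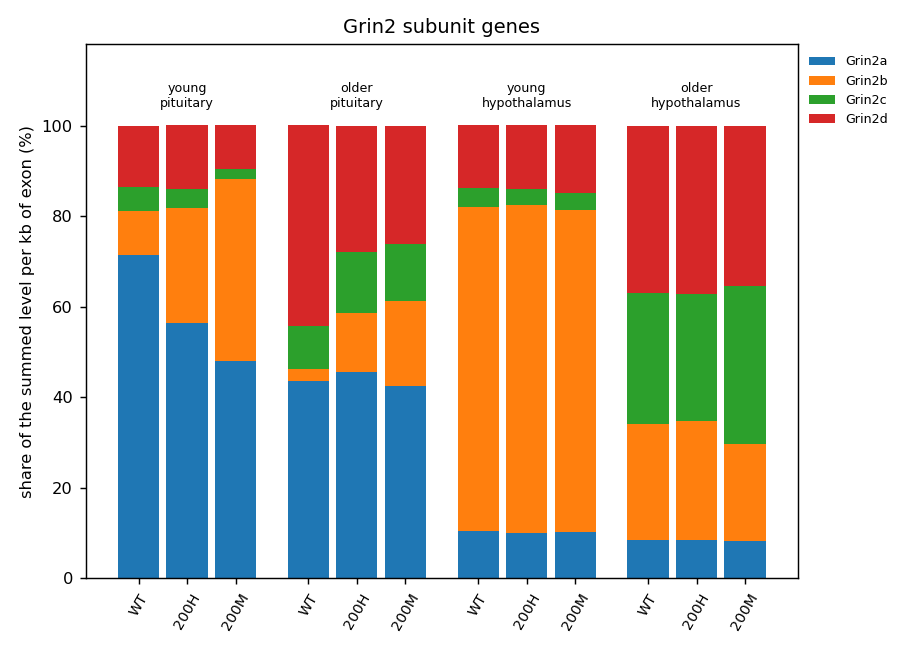
Share of each Grin2 gene in the Grin2 total (y axis, percent of CPM per kb, stacked bars of group means) by genotype in pituitary and hypothalamus of both cohorts. The Grin2b bar is larger in 200H and 200M than in WT pituitary, while the Grin2b bar of WT hypothalamus stands at 71.7% in young and 25.6% in older mice.

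Summed over all 73 genes, receptor RNA was 1886 to 2103 CPM in young WT pituitaries, 2335 to 2586 in 200H and 2565 to 2786 in 200M. In the older cohort it was 1148 to 1351 in WT, 1507 to 1731 in 200H and 1696 to 1861 in 200M. In both cohorts WT lay below both knock-in groups, and the 200H and 200M ranges overlapped.

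A list of 85 genes for receptor partners was examined in the same fits: synthesis and breakdown enzymes, transporters, auxiliary subunits, scaffolds and nicotinic modulators. In 200M pituitaries 72 were tested in the young cohort, with 30 raised and 8 lowered, and 73 in the older cohort, with 34 raised and 7 lowered. Over all genes 11.5% were raised and 10.0% lowered in young and 11.7% and 9.77% in older mice. The auxiliary subunits of glutamate receptors, which tune gating and trafficking of the AMPA and kainate receptors, had the highest share, with 11 of 17 raised in young and 12 of 17 in older mice (1 lowered in the young). Cacng3, a TARP, went from 0.280 to 2.65 CPM in young and from 0.0766 to 2.46 CPM in older pituitaries. Cnih2, a cornichon, was at 3.74 to 6.34 CPM in young WT and 15.1 to 22.4 in 200M, and rose by 1.88 and 1.65 on the log2 scale. Shisa6, an AMPA receptor partner, rose in the older cohort by 2.66, from 1.67 to 10.7 CPM on average.

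The scaffold gene Grip2, which binds GluA2, rose by 2.75 and 2.65 (4.46 to 30.2 CPM in the young cohort on average), whereas its relatives Grip1 (-0.57 and -0.66) and Pick1 (-0.48 and -0.59) fell. Ache, which codes for acetylcholinesterase, rose from 12.9 to 39.8 CPM in young and from 41.8 to 99.9 CPM in older pituitaries on average. The choline transporter gene Slc5a7 (1.15 and 1.21) and the glutamate transporter gene Slc1a2 (1.01 and 1.14) also rose. Gad2, one of the GABA-synthesising enzyme genes, fell by 0.97 and 0.91, from 66.5 to 33.9 CPM and from 52.4 to 27.6 CPM. Between 200M and 200H edgeR called none of the listed partners in either cohort, where it called 0.0383% and 0.121% of all genes. Of the partners 13 of 74 and 15 of 72 had an unadjusted p below 0.05, against 5.92% and 10.6% of all genes.

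Markers of other cells moved in the same libraries. The 7 listed neuron markers, which endocrine cells also express in part, summed to 1184 to 1239 CPM in young WT, 1474 to 1652 in 200H and 1602 to 1841 in 200M, and 6 of the 7 rose in 200M. In the older cohort the sums were 764.1 to 797.0, 974.4 to 1141 and 1206 to 1360, and all 7 rose in 200M. Oxt and Avp, carried into the posterior lobe by hypothalamic axons, summed to 0.880 to 3.17 CPM in young WT and 0.864 to 2.41 in young 200M, so these markers overlapped there. In the older cohort their sums were 3.60 to 6.76 in WT, 0.465 to 10.98 in 200H and 8.997 to 11.86 in 200M, and Oxt rose in 200M (log2 1.25, SE 0.26, adjusted p = 0.00494). The 6 pituicyte and astrocyte markers summed to 139.0 to 152.8 CPM in young WT and 169.5 to 193.5 in 200M, and to 92.3 to 100.3 and 112.9 to 157.6 in the older cohort. The 4 oligodendrocyte markers summed to 70.1 to 77.9 CPM in young WT and 41.8 to 47.5 in young 200M. Markers of melanotropes and corticotropes summed to 9062 to 12500 CPM in older WT and 11740 to 24940 in older 200M. Oligodendrocyte sums of the older cohort, and melanotrope and corticotrope sums of the young cohort, are not described. Whether shifts between cell types take part in the receptor gene changes was not tested.

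In the hypothalamus, where the receptor genes are most abundant, edgeR called none in any of the 4 comparisons, whereas DESeq2 called 5 in older 200M. In young 200M 53 were tested, with a median of -0.04 and 4 at an unadjusted p below 0.05 (5.65% of all genes). In young 200H 52 were tested, with a median of 0.00 and 3 at that level (3.93% of all genes). DESeq2 also called none in either young comparison, and 0.02% and 0.0202% of all genes were called by edgeR. Grin2b was at 936.7, 954.2, 991.3 and 897.6 CPM in young WT and at 981.0, 876.7, 952.4 and 887.2 in 200M, which overlapped fully (log2 -0.03, adjusted p = 0.955). Gabra3 was at 135.0 to 145.3 CPM in WT and at 121.1 to 153.8 in 200M.

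In older 200M hypothalamus most receptor genes lay below 0 without being called by edgeR. Of 60 receptor genes tested edgeR called none, 23 had an unadjusted p below 0.05, and DESeq2 called 5, all lower in 200M, among them Gabrb1, Chrna7, Grm7 and Grm5. Among all genes 0.00622% were called by edgeR, 18.1% had an unadjusted p below 0.05, and DESeq2 called 5.11%, 4.06% as lowered. The median log2 fold change was -0.18, with 51 of 60 below 0, where the median over all genes was 0.02 and 47.0% lay below 0. Chrna7 was at 13.5, 14.0, 17.8 and 13.6 CPM in WT and at 10.4, 7.45 and 8.50 in 200M, without overlap (log2 -0.74, adjusted p = 0.105 in edgeR and 0.00489 in DESeq2). Gabrb1 was at 220.2, 244.8, 233.9 and 260.6 CPM in WT and 207.0, 138.7 and 164.5 in 200M (-0.49, adjusted p = 0.112), and Grm7 at 64.7 to 72.9 in WT and 52.3 to 57.4 in 200M (-0.32, adjusted p = 0.117). Summed receptor RNA was 6074 to 6523 CPM in older WT and 5068 to 5878 in older 200M. In older 200H 60 were tested, the median was 0.02, 1 had an unadjusted p below 0.05 (2.8% of all genes) and neither edgeR nor DESeq2 called any, where 0.0% of all genes were called.

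Mean levels of some pituitary transcripts in these hypothalamus libraries differed between the groups. Prl and Gh belong to the marker list for pituitary cells in hypothalamus, and Tshb to the thyrotrope list. Pomc and Pou1f1 of the first list and Trhr of the second are not described. Prl and Tshb are given for the young cohort alone and Gh for the older cohort alone. The values are group means without a spread, so a single library may carry a difference. Prl averaged 17.5 CPM in young WT against 2.38 in 200H and 2.31 in 200M, whereas Tshb averaged 0.226 CPM in young WT, 2.07 in 200H and 7.91 in 200M (log2 4.81 in 200M, adjusted p = 0.00642). Gh averaged 0.202 CPM in older WT against 11.8 in 200H and 7.04 in 200M, and edgeR called no gene in older 200H hypothalamus. Their part in the receptor gene values was not tested.

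The difference between tissues was tested directly, as the 200M effect in pituitary minus that in hypothalamus of the same cohort. Libraries of both tissues carry the same replicate numbers and may come from the same mice. The fit treated them as independent and ignored any such pairing. In the young cohort 56 receptor genes were tested and 20 had a higher effect in pituitary, none a lower one, where 10.5% of all genes were called and 6.64% as higher. In the older cohort 64 were tested and 34 were higher, none lower, where 17.5% were called and 10.4% as higher. The median differences over the tested receptor genes were 0.49 and 0.85. Grin2b had the largest called values, 2.93 (SE 0.20, adjusted p = 5.91e-11) and 4.08 (SE 0.37, adjusted p = 6.91e-07), followed by Chrna7 (2.29), Chrnb4 (1.93) and Grm2 (1.91) in young and by Glra1 (4.07), Chrna7 (4.01) and Grm3 (3.76) in older mice. The older Glra1 difference joined 2.48 in pituitary with -1.59 in hypothalamus, and that of Chrna7 joined 3.25 with -0.74. Neither hypothalamus value was called by edgeR. Grm3, a metabotropic receptor gene, had too few counts for a test in pituitary alone. Of the 20 genes raised most in both pituitary cohorts, 18 were called here in young and 20 in older mice. These genes were chosen by their change in the same pituitary libraries, which enters the tested difference. Such counts therefore partly follow from the choice.

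**Figure D5:**
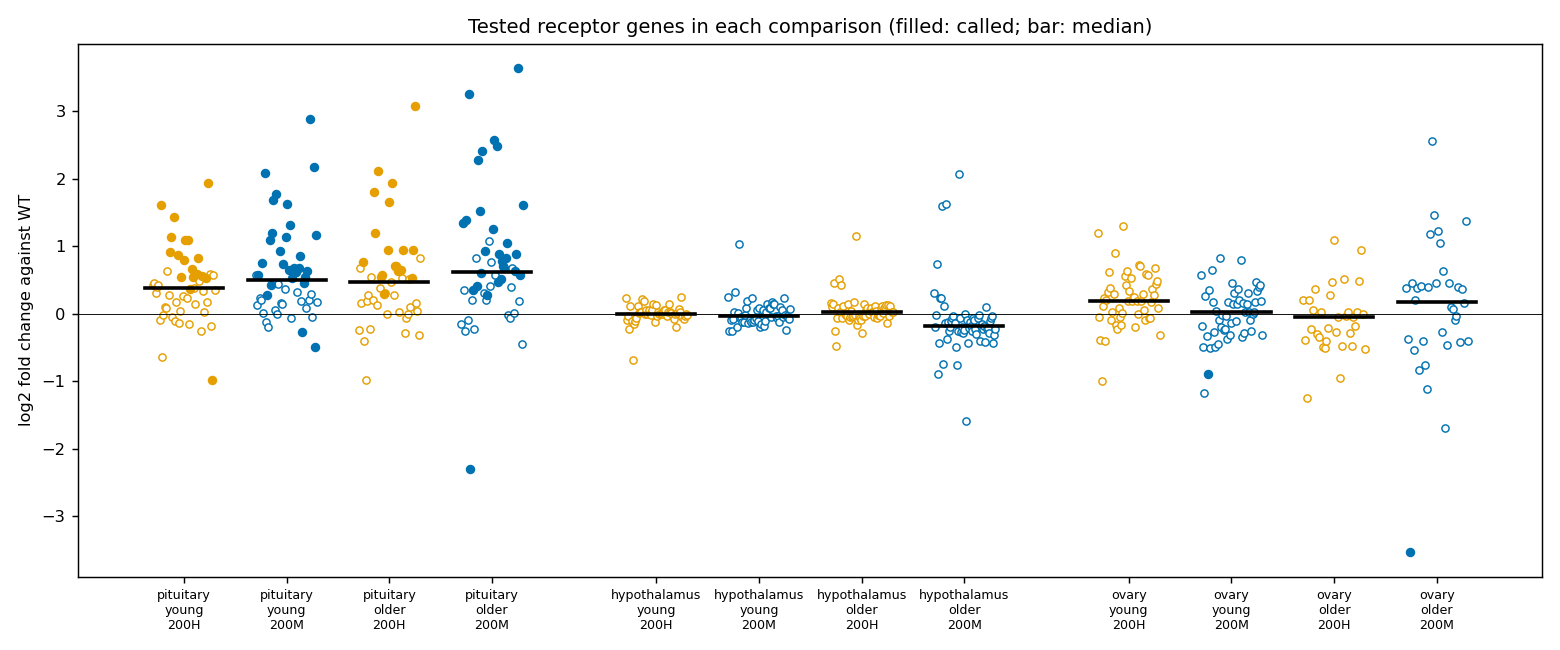
Log2 fold change against WT (y axis) of every receptor gene tested in each of 12 comparisons (x axis, tissue, cohort and genotype), 1 point per gene, with a bar at the median. The pituitary medians run from 0.38 to 0.62, and those of hypothalamus and ovary from -0.18 to 0.20.

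In the ovary 2 receptor genes were called, a different 1 in each cohort, both lower in 200M. These counts lie near the share of all genes called. In young 200M 52 were tested, with a median of 0.02 and 6 at an unadjusted p below 0.05 (16.2% of all genes), where 2.58% of all genes were called and 1.7% as lowered. The gene was Chrnb1, the β subunit gene of the muscle receptor (chr11:69784036-69795943, minus strand). It was at 6.28, 7.59, 6.96 and 8.59 CPM in WT, 4.50, 5.55, 5.91 and 5.47 in 200H and 3.67, 4.88, 4.13 and 2.87 in 200M, and WT did not overlap either knock-in group. It fell by 0.90 on the log2 scale in 200M (SE 0.20, adjusted p = 0.033), a call lost without any 1 of 7 of the 8 libraries. In older ovaries Chrnb1 averaged 12.6 CPM in WT and 8.55 in 200M and was not called.

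In older 200M ovaries 34 receptor genes were tested, with a median of 0.18 and 7 at an unadjusted p below 0.05 (16.5% of all genes), where 2.71% of all genes were called and 1.19% as lowered. Chrna2, a neuronal α subunit gene (chr14:66135039-66152948, plus strand), fell by 3.54 on the log2 scale (SE 0.58, adjusted p = 0.0195). It was at 1.75, 4.24, 9.86 and 8.46 CPM in WT, 4.52, 1.42, 1.98 and 2.14 in 200H and 0.764, 0.599, 0.416 and 0.303 in 200M, where the last group lay below all others. Without any 1 of 5 of the 8 libraries the call was lost. In young ovaries Chrna2 averaged 4.56 CPM in WT, 2.19 in 200H and 1.94 in 200M (log2 -1.18 in 200M, not called). In the same older libraries the summed granulosa and luteal cell markers were 1518 to 5268 CPM in WT and 734.4 to 1905 in 200M, and their part in the Chrna2 value was not tested. In 200H ovaries neither edgeR nor DESeq2 called any of the 52 receptor genes tested in the young (2 at an unadjusted p below 0.05, 7.05% of all genes) or the 33 in the older cohort (4 at that level, 6.59% of all genes), where 0.0051% and 0.0% of all genes were called. Grin2b was level in the ovary, at 90.8 to 131.3 CPM in young WT and 93.0 to 120.9 in young 200M (log2 0.03, adjusted p = 0.922).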

How the data were processed

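RNA-seq libraries were aligned by the authors with STAR 2.7.1a to the mm10 mouse genome. Reads were counted with HTSeq 0.9.1 (older pituitary and hypothalamus) or featureCounts (older ovary, young cohort), and the deposited raw counts per gene were used here. Counting used strand in the young cohort only. Gene IDs numbered 49585 in older pituitary and hypothalamus and 55401 elsewhere, and held all 73 receptor genes. The authors' fold changes and p-values in the same tables were not used, nor were 141 per-sample columns (their normalised values, and 3 count columns of WT pituitary whose names match no sample). One young WT pituitary library, named replicate u, is known by its group only. No 2 libraries of a group were copies (99 pairs).

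Each pair of genotypes was fitted alone within tissue and cohort with edgeR 4.0.16 (R 4.3.3): filterByExpr, TMM, quasi-likelihood F test, Benjamini-Hochberg adjustment over all tested genes, called below 0.05. The standard error was taken as the log2 fold change divided by the root of F. CPM levels were TMM-scaled within each tissue of a cohort. The tissue difference was an interaction term. In data simulated for young 200M against WT pituitary with 17604 genes, 42.9% of changes of 0.5, 81.2% of 1 and 100% of 2 on the log2 scale were called, with 12 false calls. Alternatives were DESeq2 1.42.0, its size factors, no filter, removal of a length trend, a replicate block and leaving out each library. Each p-value judges a fitted difference against the spread between mice of a group, estimated with information shared across genes.

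Genes named were those raised in 200M of both pituitary cohorts (the 20 of largest mean change, and Chrnb2, the remaining one), the family leaders per kilobase in WT, any called in hypothalamus, ovary or between 200M and 200H, and those called in 1 pituitary cohort. The receptor genes, the partner list and the marker lists were chosen with earlier results of these data known. Results of some of these genes are not reported here.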

Additional observations from a re-analysis of the deposited data

Results flagged for a closer look

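The 200M effect differed between pituitary and hypothalamus by the interaction test for most of the 20 receptor genes raised most in both pituitary cohorts. That partly follows from choosing these genes by their pituitary change, which enters the difference. The differences, pituitary minus hypothalamus on the log2 scale, were in the young cohort 2.93 for Grin2b, 2.29 for Chrna7, 1.69 for Gabrg3, 1.79 for Gabra3, 1.42 for Glra1, 1.24 for Gabbr2 and 1.25 for Grm7. They were below 1.1 for Gabrb1 (1.07), Grid1 (0.52), Glrb (0.69), Gria2 (0.81), Gria3 (0.73), Grin1 (0.67), Gria1 (0.62) and Gabbr1 (0.51). In the older cohort they were 4.08 for Grin2b, 4.01 for Chrna7, 2.89 for Gabrg3, 2.48 for Gabra3, 4.07 for Glra1, 2.54 for Gabbr2, 1.94 for Grm7 and 1.16 for Chrna4. Further values were 1.36 for Chrm3, 1.42 for Gabrb1, 1.05 for Grid1, 1.00 for Glrb, 1.03 for Gria2, 0.78 for Gria3, 0.85 for Grin1, 0.70 for Gria1 and 0.54 for Gabbr1. The young Grid1 call (0.52) was lost in edgeR with libraries blocked by genotype and replicate number across tissues (adjusted p = 0.141). With no count filter it was lost too (edgeR, adjusted p = 0.0564).

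Single pituitary libraries stood apart from the rest of their group by Dixon's test in 10 of 144 groups of 4 examined, where chance gives about 5%, and 7 of these are described. Older 200H replicate 4 was high for Grin2b (7.53 CPM, others 4.19 to 4.56) and Glra1 (4.77, others 3.17 to 3.37). Older WT replicate 3 was low for Grid1 (6.81, others 9.63 to 9.94), and older WT replicate 1 was low for Chrm3 (1.93, others 4.90 to 5.25). Older 200H replicate 3 was low for Grin2a (9.51, others 14.3 to 14.6). Young 200H replicate 1 was high for Gabrq (6.26, others 4.87 to 5.07), and young 200H replicate 3 was low for Grm7 (4.66, others 6.61 to 6.73).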

How the results depend on the processing

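The counts of receptor genes called in pituitary against WT, and of the tissue differences, stayed within 1.5 times of the values above with every alternative. For 200M against 200H the young count went from 1 to 5 with no filter, 2 with DESeq2 and 0 with the length trend removed, and the older count from 0 to 9 with no filter and 1 with DESeq2. In hypothalamus the older 200M count went from 0 to 12 with no filter and 5 with DESeq2, and the older 200H count from 0 to 1 with no filter. In young 200M ovary the count went from 1 to 3 with no filter and 2 with DESeq2. The causes were not tested. Leaving out 1 library gave 22 to 29 genes called for young 200M, 15 to 20 for young 200H and 0 to 2 for young 200M against 200H in pituitary, and 19 to 29, 15 to 18 and 0 to 3 in the older cohort. It gave 0 to 0 in both young hypothalamus comparisons, 0 to 3 and 0 to 0 for older 200M and 200H hypothalamus, 0 to 3 for young and 0 to 2 for older 200M ovary, 0 to 0 for 200H ovary of both cohorts, and 17 to 22 and 29 to 35 for the tissue difference.

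Replicate numbers are shared between genotypes in the labels, but in none of the 14 comparisons did every same-numbered pair of libraries deviate together with a correlation over 0.1. Single pairs reached 0.289 in older 200H hypothalamus and 0.272 in young 200H ovary, where others lay at -0.0429 and -0.456, so the numbers were not taken as pairs. With the replicate block the young 200M against 200H count was 0, as were the counts for 200M in young and older ovary.

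Of the values of single named genes that were called, 1089 kept the call on leaving out 1 library and 95 lost it. Of those not called, 77 stayed so, 8 gained a call and 5 changed sign. With the replicate block 110 kept and 15 lost the call, and of the uncalled 7 stayed so, 2 gained a call and 4 changed sign. DESeq2 kept 122 calls and lost 5. Those that changed sign were uncalled in pituitary 200M to begin with: older Grik2 (-0.07, 0.0 with the block and -0.13 to 0.0 with a library left out), young Gabra2 (0.06, -0.01 with the block and -0.07 to 0.24 with a library left out), young Grin2a (0.20, -0.01 with the block), young Grin3a (-0.05, 0.10 with the block and -0.14 to 0.05 with a library left out) and young Glra2 (-0.06, -0.14 to 0.09 with a library left out). Depth limits the low genes most: older WT Grin2b rests on 20 counts and Chrna7 on 14, so the size of their increases is less certain than its direction.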

Other observations

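Chrna6, a nicotinic α subunit gene best known from dopamine neurons, ranged widely among WT mice. It was at 11.1, 54.7 and 7.82 CPM in young WT pituitaries and at 20.2, 8.58, 6.00 and 60.6 in older WT pituitaries. In 200M it was at 16.5, 35.5, 23.2 and 23.8 CPM in the young and at 17.99, 24.5 and 25.2 in the older cohort. Chrnb3, whose product assembles with the Chrna6 subunit, was highest in the same older WT library as Chrna6 (62.0 CPM, against 22.2 to 24.9 in the other 3), but in the young cohort the WT library of highest Chrnb3 (52.0 CPM) was one of the lower 2 for Chrna6.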
